A study of Mus musculus with 502 samples.

Results

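Silencers are DNA elements that lower the transcription of genes they act on. They are the counterpart of enhancers, and are known to work by binding repressor proteins, which recruit enzymes that remove activating histone marks or add repressive ones. Many depend on repressors that only some cell types make, whereas an element read by a widely made repressor can act in unrelated cells. A plasmid reporter assay tests a fragment outside its own chromosome, so it reads what the sequence can do with the proteins of a cell, not the state of the native locus.

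The elements described here are the silencers that were listed in each of 3 human lines. The authors' 3 lists of silencers were pooled over chromosomes 1 to 22, intervals that overlapped by at least 1 bp were merged, and a merged region was kept if it held at least 1 silencer of each list. Of 350589 merged regions, 1299 (0.371%) met this rule, 23598 (6.73%) held silencers of 2 lists and 325692 (92.9%) of a single list. The members were chosen by the authors' silencer calls themselves, so this share and all scores and widths below are descriptions, given without a test.

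The lists come from Ss-STARR-seq, in which sheared genomic DNA was cloned into a reporter plasmid, the plasmid pool was put into cells, and the RNA made from each fragment was set against the plasmid DNA. The lines were 293T, of embryonic kidney origin and transformed by viral genes; K562, from a chronic myeloid leukaemia; and LNCap, from a lymph node metastasis of prostate cancer that carries the androgen receptor. All were grown in DMEM with serum and antibiotics, per the labels' protocols, which also name an induction medium without saying for which samples. No treatment or genotype beyond the line is labelled. The series has 102 output RNA libraries of 293T, 180 of K562 and 179 of LNCap. It has 1 input DNA library of 293T and 40 of LNCap, and none labelled for K562. What the K562 RNA was set against is therefore not known here, which limits every K562 value and its comparison with the other lines. The libraries are represented by 1 list per line, so no list has a replicate and no value has a replicate error. The libraries are labelled as mouse, but the lines are human, the build named is human hg38 and the lists include chromosomes 20 to 22, which mice lack. The lists hold no expression values, so the identity of the lines could not be checked against markers.

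The silencers of the shared regions made up a similar small part of each list. They numbered 1438 of the 119180 autosomal silencers of 293T (1.21%, 95% Wilson interval 1.15 to 1.27). In K562 they were 1436 of 128489 (1.12%, interval 1.06 to 1.18), and in LNCap 1460 of 131665 (1.11%, interval 1.05 to 1.17). These intervals, like all those below, cover counting error only, and the read depth behind a silencer is unknown. The 1299 regions covered 384 kb in all. A region was 50 to 1251 bp wide, with a median of 270 bp and quartiles of 186.5 and 366.5 bp. In 958 regions (73.7%) each list contributed exactly 1 silencer, and the fullest region held 9.

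The shared regions that scored highest in their weakest line show how the 3 lists met. The authors gave each silencer an activity score, with 1 decimal, no value below 2 and no stated scale, so a score is used here only within its own list. Each line was represented in a region by its highest finite score. Of the 1299 regions, 181 (13.9%) reached 2.5 in each of the 3 lines, 34 (2.62%) reached 3, 11 reached 3.5 and 2 reached 4. The 10 regions named next are those with the highest such minimum, with ties taken in chromosome order.

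The first lay on chromosome 18 at 12650551 to 12650901 of hg38. 293T listed 50 bp silencers there with scores of 4.1 and 6.8, K562 a 250 bp silencer with 4.9, and LNCap silencers of 249 and 50 bp with 2.6 and 5. The second, on chromosome 7 at 75754231 to 75754531, scored 4.6 in 293T, 5.6 and 4.2 in K562, and 5.6 in LNCap. These were the 2 regions that reached 4 in each line. In both, a stretch of about a window was common to the 3 lists: 50 bp on chromosome 18 (12650701 to 12650751) and 49 bp on chromosome 7 (75754301 to 75754350).

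Next came a 100 bp region on chromosome 13 at 31879651 to 31879751, scored 3.8 (293T), 4.2 (K562) and 3.8 (LNCap). Its 293T silencer spanned the whole region, K562 listed the first 50 bp and LNCap the last 50 bp, so no base was listed in all 3 lines when an interval's end is read as outside it. Whether the deposited ends are inside or outside is not stated; with both ends inside, the K562 and LNCap silencers would share 1 base at 31879701. On chromosome 2, at 155034500 to 155034901, the scores were 3.9 (293T), 3.7 (K562) and 3.8 (LNCap). There the K562 silencer joined the others, since the 293T silencer ended at 155034551, where that of LNCap began.

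K562 and LNCap listed one and the same 201 bp interval on chromosome 11, at 17103100 to 17103301, with scores of 3.9 and 3.7. The 50 bp silencer of 293T, scored 3.9, lay inside it. On chromosome 16, at 73833850 to 73834023, the scores were 3.6 (293T), 3.8 (K562) and 3.6 (LNCap), over a common stretch of 48 bp. The starts there were 73833850, 73833853 and 73833855, so the lists began within a few bp of each other, and the 293T silencer ran on for 173 bp against 50 bp in the other lines.

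The other 4 regions each had a weakest score of 3.5, as did 1 more that the order of chromosomes left out. On chromosome 1, at 180658652 to 180659101, the 293T score of 8.7 was the highest of that line among the shared regions, beside 3.5 in K562 and 4.4 in LNCap. The 100 bp listed by 293T lay within the 449 bp listed by K562. On chromosome 3, at 130672501 to 130673021, the 293T silencer scored 3.5, the stronger K562 silencer 5.3 and the LNCap silencer 3.9. On chromosome 16, at 21683786 to 21683892, the scores were 3.5, 5.1 and 5.8 in the same order, with no common base. On chromosome 17, at 45178601 to 45178801, they were 3.5, 4.2 and 3.8, with 50 bp in common.

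**Figure D1:**
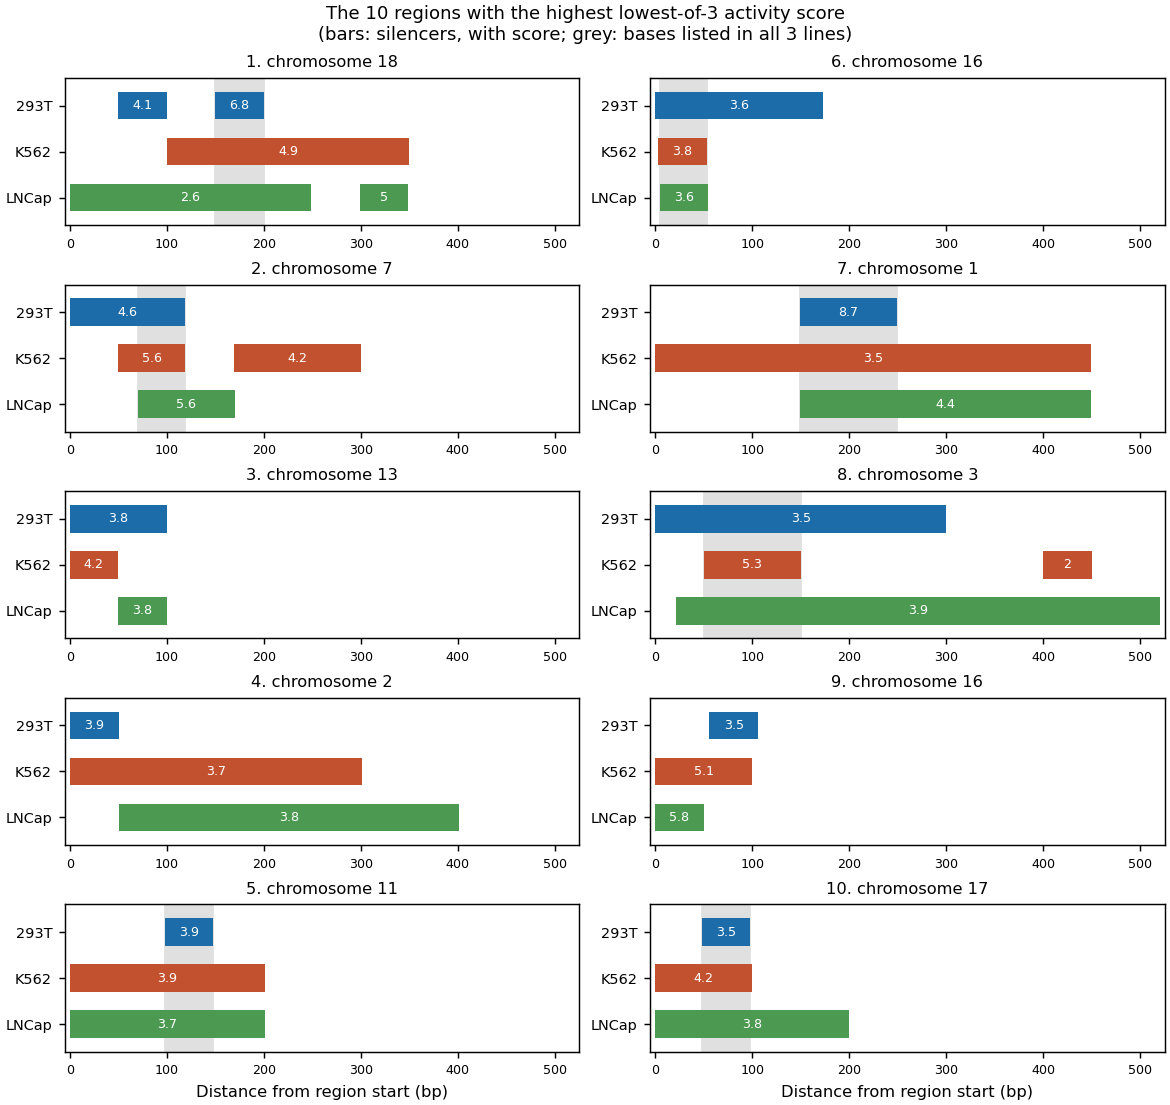
Silencers of 293T, K562 and LNCap in the 10 shared regions with the highest weakest score, plotted against distance from the region's start in bp. Each bar is a silencer with its score, and grey marks the longest stretch listed in all 3 lines; 3 of the 10 regions have none.

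Being listed in all 3 lines often did not mean that the same bases were listed. A base common to the 3 lists existed in 806 regions (62.0%), and 493 (38.0%) had none, with the end of an interval read as outside it. With both ends read as inside, 925 of the same regions had a common base and 374 had none, so this split turns on a convention that is not stated. In 834 regions (64.2%) each pair of lists overlapped, and 28 of these still had no base common to all 3. In the rest, 1 list bridged the other two: LNCap in 201 regions (15.5%), K562 in 182 and 293T in 82 (6.31%). A list that has to reach both others is favoured if its silencers are wide. Width was not required, as K562 bridged with 50 bp on chromosome 2 at 97591815 to 97592151. Where LNCap bridged, its silencers summed to a median of 200 bp against 50 bp for both other lines, and where 293T bridged, to 160.5 bp against 50 bp.

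Where a common stretch existed, it was about as long as 1 window of the lists. Its median length was 50 bp, with quartiles of 29 and 50 bp and a range of 1 to 400 bp, and it took up a median of 16.7% of the region's width. A common stretch of exactly 50 bp was found in 272 regions, of at least 50 bp in 440 (33.9% of all 1299) and of over 100 bp in 61 (4.70%). Including regions without a common base, the median was 22 bp.

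**Figure D2:**
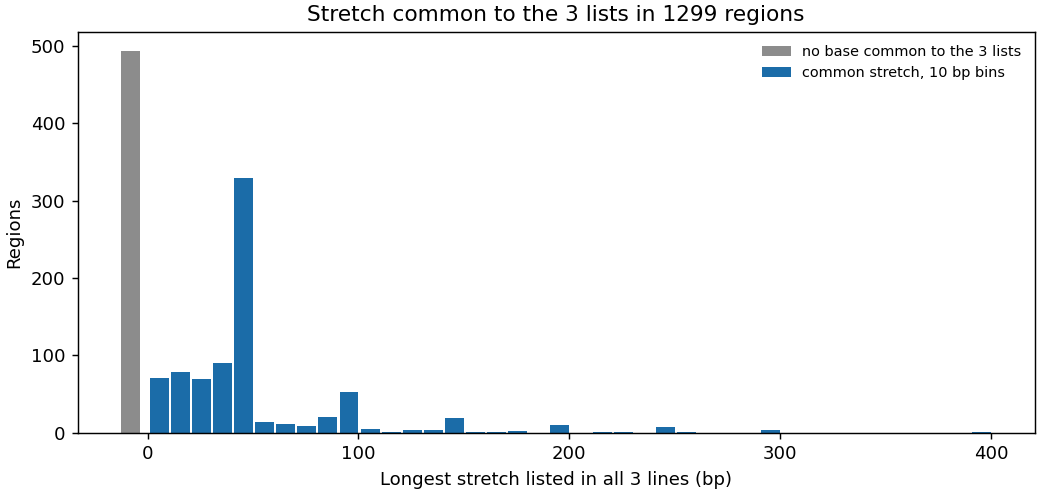
Number of shared regions by the longest stretch, in bp, that is listed in all 3 lines, in bins of 10 bp. The grey bar holds the 493 regions with no common base, and the tallest blue bar, from 41 to 50 bp, holds 329 regions, 272 of them with exactly 50 bp.

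The 5 longest common stretches lay in regions whose weakest line scored between 2 and 2.2, within the usual range of the shared regions. Over all shared regions the weakest score had a median of 2.1 and quartiles of 2 and 2.3. On chromosome 22, at 36956701 to 36957301, 400 bp were listed in all 3 lines, with silencers of 400 bp (293T), 450 and 50 bp (K562) and 600 bp (LNCap). Its highest scores were 2.7, 2.3 and 2.1. A region on chromosome 5, at 140628001 to 140628401, had 300 bp in common, and the 293T and LNCap intervals were identical there, with scores of 2.2 and 2.3, beside 2.2 in K562. Regions with 300 bp in common also lay on chromosome 17 (60816151 to 60816651, 293T scoring 3.1, K562 2.1 and LNCap 2.6) and chromosome 19 (49986951 to 49987551, scores of 2.2, 2.4 and 3.9). The fifth, on chromosome 6 at 143474151 to 143474651, had 252 bp in common and scores of 2, 2 and 2.3.

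An interval with the same start and end in all 3 lists occurred 4 times, each 50 bp wide. These lay on chromosome 17 at 42568251 to 42568301 (293T scoring 2.7, K562 2.5 and LNCap 2.7), chromosome 2 at 44279651 to 44279701 (2.5, 2.4 and 2.2), chromosome 1 at 224228751 to 224228801 (3.5, 3.3 and 2.1) and chromosome 3 at 80502751 to 80502801 (2.5, 2.1 and 2.3). With these 4 counted in each pair, identical intervals of 2 lists within the shared regions numbered 47 for K562 and LNCap. They numbered 30 for 293T and LNCap and 24 for 293T and K562. K562 and LNCap overlapped within 1217 of the 1299 regions (93.7%), 293T and LNCap within 1117 (86.0%) and 293T and K562 within 1098 (84.5%).

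The shared silencers held more high scores than their lists as a whole. A score of at least 3 was given to 298 of 1438 shared silencers in 293T (20.7%, interval 18.7 to 22.9), against 14.2% of the whole list. In K562 it was given to 261 of 1436 (18.2%, interval 16.3 to 20.3), against 9.85%, and in LNCap to 322 of 1460 (22.1%, interval 20.0 to 24.3), against 11.6%. The score and the call come from the same measurement, so this is no independent evidence that shared silencers are stronger. The medians moved little: the shared silencers had a median score of 2.4 in each line, against 2.3 in the 293T list and 2.2 in the other lists. The shared silencers of each line held no infinite score, but such scores were rare throughout. With chromosomes X and Y included, there were 2 among 125249 silencers of 293T, 31 among 134159 of K562 and 13 among 137729 of LNCap.

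The same order was present among silencers of equal width. Among silencers of exactly 50 bp, a score of at least 3 was reached by 21.4% of 734 shared silencers in 293T (interval 18.6 to 24.5), 21.7% of 483 in K562 (18.3 to 25.6) and 30.0% of 497 in LNCap (26.1 to 34.1). Those of regions held by that list alone were at 13.9%, 9.28% and 10.9%. Silencers of that width shared with 1 other list lay between these values. In 293T they reached 20.9% with K562 only (interval 18.8 to 23.1) and 19.2% with LNCap only (17.3 to 21.2), so their intervals overlapped that of the silencers in all 3 lists. In LNCap the share was 23.5% with K562 only (interval 22.6 to 24.4), below the interval of those in all 3.

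**Figure D3:**
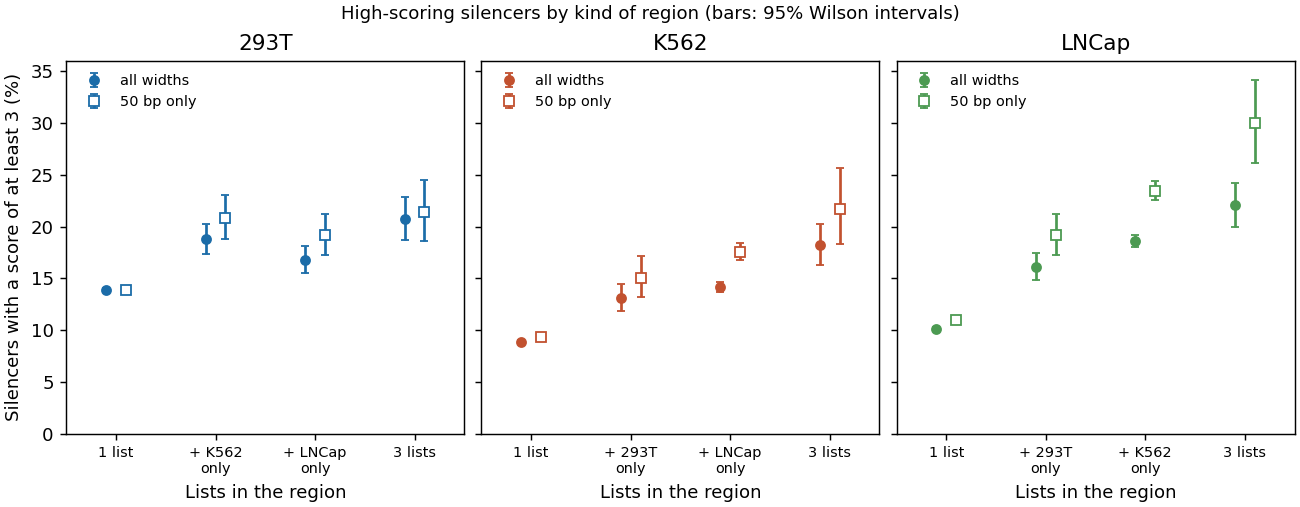
Share of silencers with a score of at least 3, in percent, in regions of 1 list, of each pair of lists and of all 3, in a panel per line. Filled circles are all silencers, open squares those of 50 bp, and bars are 95% Wilson intervals; for LNCap the 50 bp share runs from 10.9% in regions of 1 list to 30.0% in regions of 3.

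Among the listed scores of the shared regions, a high score in one line went with a high score in another only loosely. Across the 1299 regions, the Spearman correlation of the regions' highest scores was 0.16 for 293T and K562, 0.16 for 293T and LNCap, and 0.24 for K562 and LNCap (Pearson 0.19, 0.15 and 0.26). In regions of a pair of lists only, with finite scores, it was 0.12 for 293T and K562 (2675 regions), 0.17 for 293T and LNCap (2975 regions) and 0.27 for K562 and LNCap (17944 regions). These are descriptions over regions that come from the same lists, and scores of 2 to 3 are recorded with a single decimal and are heavily tied. No score below 2 is listed, so each correlation covers only the range that passed the authors' call in each line. How this cut affects the correlations was not tested. A score above the upper quartile of the regions of its own line was found in 457 of the shared regions for 293T (35.2%, background 24.6%), 451 for K562 (34.7%, background 23.1%) and 465 for LNCap (35.8%, background 20.9%). Only 108 regions (8.31%) lay above that quartile in all 3 lines, 284 in 2 lines, 481 in 1 line and 426 (32.8%) in none. A region's score is the highest of its silencers, and the regions of 1 list, most of the background, held 1 silencer each. Of the shared regions, 121 held 2 silencers of 293T, 125 held 2 of K562 and 144 held 2 of LNCap. Their highest score had more values to come from, and the effect of this on the shares was not tested.

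The regions with the highest score of a line had scores from 2 upward in the others. The highest LNCap score among the shared regions, 9.2, was on chromosome 20 at 31460451 to 31460755, where 293T scored 2.2 and K562 2.1. On chromosome 4, at 186504401 to 186504539, LNCap scored 8.5, 293T 4 and K562 3.3. The highest K562 score, 6.7, was on chromosome 1 at 52950066 to 52950151, with 3.5 in 293T and 3.1 in LNCap. A region on chromosome 8 had a K562 score of 6.6 and a LNCap score of 7.3, both among the 3 highest of their line, and a 293T score of 2.6. On chromosome 20, at 34846101 to 34846351, K562 scored 6.3, LNCap 5 and 293T 2.7, and on chromosome 7, at 685501 to 685921, 293T scored 6.7, K562 2 and LNCap 3.

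Regions with a base common to all 3 lists scored somewhat higher than those without. A score of at least 3 was reached in 24.4% of the 806 regions with a common base for 293T (interval 21.6 to 27.5), 21.1% for K562 (18.4 to 24.0) and 25.3% for LNCap (22.4 to 28.4). Of the 493 regions without one, 17.4% (14.3 to 21.0), 15.4% (12.5 to 18.9) and 20.1% (16.8 to 23.8) reached it. The intervals were separate for 293T and overlapped for K562 and LNCap.

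Wider silencers were in shared regions more often. A rule of any overlap is easier for a wide silencer to meet, and its part in this pattern was not tested. In K562 the share rose from 0.640% of 75455 silencers of 50 bp (interval 0.586 to 0.700) to 5.21% of 2973 over 300 bp (4.47 to 6.07). In LNCap it rose from 0.623% of 79833 (0.570 to 0.680) to 6.02% of 2990 (5.22 to 6.93), and in 293T from 0.955% of 76853 (0.889 to 1.03) to 3.31% of 1663 (2.55 to 4.28). Shared silencers had a median width of 50 bp in 293T and 100 bp in K562 and LNCap, against 50 bp in each whole list. In regions of 2 lists, the 293T medians were 50 bp (with K562 only) and 51 bp (with LNCap only). K562 silencers with LNCap only, and LNCap silencers with K562 only, also had a median of 100 bp. The medians with 293T only were 94 bp in K562 and 75.5 bp in LNCap. A silencer over 300 bp was present in 336 shared regions (25.9%) in at least 1 line, and in all 3 lines in 4. By line, 293T had one in 55 regions, K562 in 154 and LNCap in 180. Counted by silencer, those over 300 bp were 3.82% of shared 293T silencers, against 3.81% with K562 only and 4.35% with LNCap only. In K562 they were 10.8%, against 7.27% with LNCap only and 3.62% with 293T only. In LNCap they were 12.3%, against 6.77% with K562 only and 4.67% with 293T only.

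The share also rose with the score at a fixed width. Among 50 bp silencers of LNCap it went from 0.293% of 29387 scored 2 to 2.1 (interval 0.237 to 0.361) to 1.89% of 1900 scored 4 or more (1.37 to 2.61). For K562 it went from 0.385% of 29866 (0.321 to 0.462) to 1.84% of 1305 (1.24 to 2.72), and for 293T from 0.696% of 26301 (0.602 to 0.804) to 1.85% of 2104 (1.36 to 2.52).

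**Figure D4:**
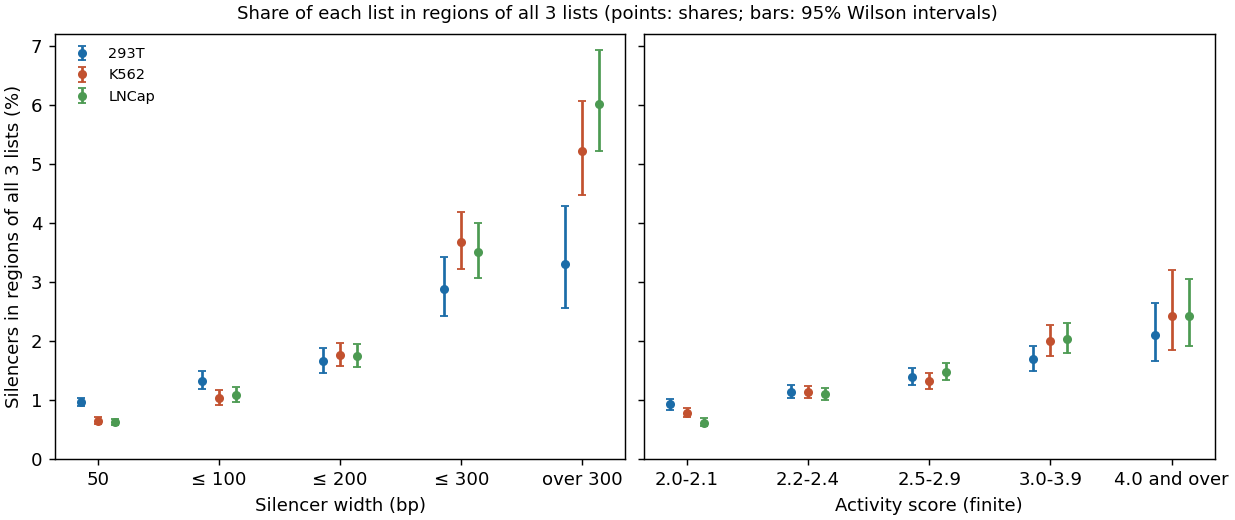
Share of each list's silencers that lie in regions of all 3 lists, in percent, by silencer width in bp (left; each class starts above the one before) and by activity score (right), with 95% Wilson intervals. In LNCap it runs from 0.623% at 50 bp to 6.02% over 300 bp.

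Shared regions were spread over all 22 autosomes, with the largest shares on chromosomes 19, 17 and 22. On chromosome 19, 99 of 12507 merged regions were in all 3 lists (0.792%, interval 0.651 to 0.963), on chromosome 17, 90 of 12610 (0.714%, 0.581 to 0.876), and on chromosome 22, 28 of 4739 (0.591%, 0.409 to 0.853). Chromosome 1, with 117 of 25988 (0.450%, 0.376 to 0.539), also had an interval above the share over all autosomes. The smallest share was 0.274% on chromosome 2 (82 of 29953, interval 0.221 to 0.340), close to chromosome 8 (52 of 18924, 0.275%) and chromosome 15 (30 of 10777, 0.278%). Chromosome 21, with 14 of 3741, was near the mean at 0.374%. Per Mb up to the highest listed end, chromosome 19 held 1.69 shared regions (exact Poisson interval 1.37 to 2.06), chromosome 17 held 1.08 (0.869 to 1.33) and chromosome 15 held 0.294 (0.198 to 0.420).

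Regions of 2 lists were also more frequent on these chromosomes. They made up 8.38% of merged regions on chromosome 17 (interval 7.91 to 8.88), 9.26% on chromosome 19 (8.76 to 9.78) and 9.56% on chromosome 22 (8.75 to 10.4), against 6.73% over all autosomes. Among regions of 2 or more lists, those of all 3 were 7.85% on chromosome 17 (90 of 1147) and 7.88% on chromosome 19 (99 of 1257), against 5.22% over all autosomes (1299 of 24897). On chromosome 22 they were 5.82% (28 of 481, interval 4.06 to 8.28), which includes the value over all autosomes.

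Chromosomes 17, 19 and 22 together held 217 of the 1299 shared regions, 16.7%, and 8.52% of all merged regions. These 3 have the largest such shares of any autosome, and the grouping was made with values of these lists in hand. Its excess is therefore partly built in, and the group carries no test. Pooling also hides differences within it. With a base common to all 3 lists required, chromosome 22 was at 0.274%, against 0.230% over all autosomes. Silencers of equal width showed the same order, but they come from the same shared regions and are no independent evidence for it. Of 50 bp silencers on these chromosomes, 2.70% of 5338 in 293T were in shared regions (interval 2.30 to 3.17), against 0.825% of 71515 on the other autosomes (0.761 to 0.894). For K562 the values were 1.09% of 6967 (0.872 to 1.36) against 0.594% of 68488 (0.539 to 0.655). For LNCap they were 0.815% of 7485 (0.635 to 1.05) against 0.603% of 72348 (0.549 to 0.662), with overlapping intervals.

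**Figure D5:**
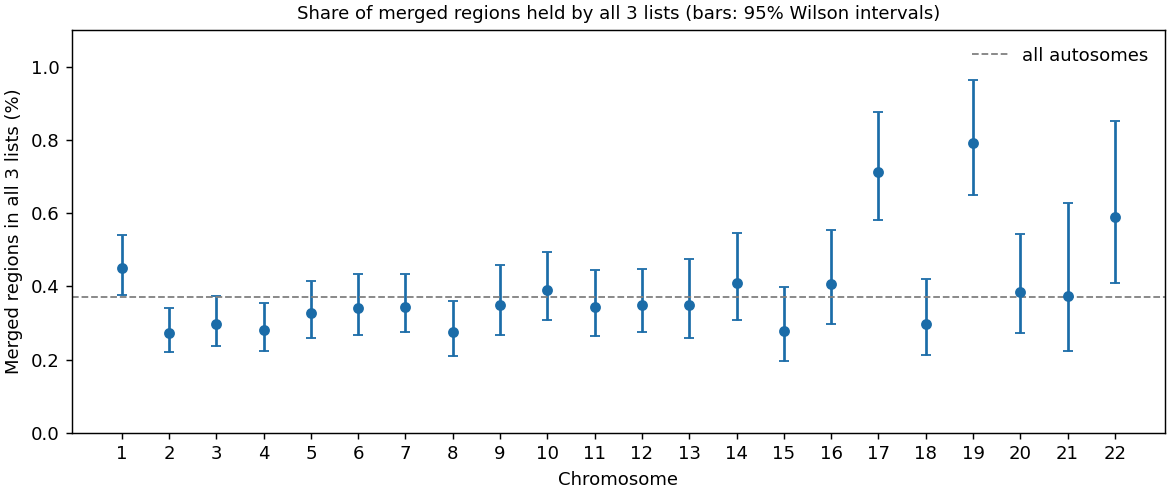
Share of the merged regions of each autosome that all 3 lists hold, in percent, with 95% Wilson intervals. The dashed line marks 0.371% over all autosomes, and the intervals of chromosomes 1 (0.450%), 17 (0.714%), 19 (0.792%) and 22 (0.591%) lie above it.

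Density of silencers moved with part of this pattern. The 2762 occupied bins of 1 Mb were sorted into 5 classes of nearly equal number by their merged regions. In the 4 sparser classes, between 0.288% and 0.344% of merged regions were in all 3 lists, and in the densest class, with at least 160 regions per bin, 0.486% (538 of 110762, interval 0.446 to 0.528). Within that densest class, chromosomes 17, 19 and 22 were at 0.809% (169 of 20880, interval 0.697 to 0.940) and the other autosomes at 0.411% (369 of 89882, 0.371 to 0.455). In classes 2, 3 and 4, counted from the sparsest, chromosomes 17, 19 and 22 were at 0.556%, 0.437% and 0.659%. The other autosomes were there at 0.280%, 0.323% and 0.301%. The intervals overlapped in classes 2 and 3 and were separate in class 4. In the sparsest class the order did not hold, with 4 of 1405 (0.285%, interval 0.111 to 0.730) against 122 of 35226 (0.346%, 0.290 to 0.413). The part of density in the chromosome shares was not tested beyond these classes, and how uniquely reads map was not examined.

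At least 1 shared region was present in 941 of the 2762 bins (34.1%), and 678 of these held exactly 1. The fullest bin lay on chromosome 10 between 38 and 39 Mb with 8 of its 310 merged regions shared. Its shared regions were wide, with a median of 563 bp, and 4 of the 8 had a base common to the 3 lists. The region with most silencers was among them, at 38493050 to 38494150. Over 1100 bp, 293T listed 2 silencers there, K562 2 and LNCap 5, with highest scores of 2.8, 3.4 and 3. Its first 4 LNCap silencers were separated by gaps of 50 bp and all lay within a single K562 silencer of 601 bp. A region of 882 bp, at 38824351 to 38825233, had 7 silencers, scores of up to 2.9, 3.4 and 3.7, and no common base. How uniquely reads map in this bin was not examined, so its wide and full regions are given as listed only.

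Chromosome 17 held 7 shared regions between 2 and 3 Mb, of 230 merged regions, over a span of 549 kb. The strongest of them in its weakest line was at 2823918 to 2824218, scored 3.2 (293T), 3.7 (K562) and 2.5 (LNCap). Another, at 2529426 to 2529651, scored 4.3 (293T), 2.5 (K562) and 2.2 (LNCap). Bins with 5 shared regions lay on chromosome 7 from 55 to 56 Mb, on chromosome 19 from 4 to 5 Mb and 12 to 13 Mb, and on chromosome 20 from 31 to 32 Mb. On chromosome 19, the region at 4724041 to 4724786 held 8 silencers, 4 of them LNCap, with highest scores of 2.6 (293T), 2.2 (K562) and 3.9 (LNCap). In the bin from 12 to 13 Mb all 5 had a common base, and LNCap scores were 3.4, 3.9 and 4 in 3 of them. Regions with 7 and 6 silencers lay on chromosome 17 at 75353773 to 75354511 and on chromosome 1 at 216973515 to 216973765, with weakest scores of 2.4 and 2.3.

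Most shared regions had no other shared region within 100 kb. The median distance to the nearest other shared region was 548 kb (quartiles 172 and 1456 kb). A neighbour within 1 kb was found for 16 regions (1.23%), within 10 kb for 45 (3.46%) and within 100 kb for 234. The closest pair, on chromosome 4 at 23087839 to 23088149 and 23088157 to 23088481, lay 8 bp apart, with 293T scores of 2.7 and 3.3, K562 scores of 2.1 and 2.8, and LNCap scores of 2.3 in both. On chromosome 19, regions at 56637951 to 56638351 and 56639347 to 56639651 lay 996 bp apart. The first scored 4.8 (293T), 3.6 (K562) and 2.2 (LNCap), the second 2, 3.2 and 3.3.

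The surroundings of the shared regions held silencers of each list slightly more often than those of merged regions in general. Within 5 kb of either edge, and without the region's own silencers, a 293T silencer was present for 49.1% of shared regions (interval 46.4 to 51.8) and 42.2% of all merged regions. For K562 the shares were 51.8% (49.1 to 54.5) and 46.0%, and for LNCap 54.3% (51.6 to 57.0) and 46.9%. Regions of fewer lists had as many or nearly as many silencers of their own lists nearby. A further 293T silencer lay near 50.6% of regions of 293T alone, 51.3% of those with K562 only and 51.9% of those with LNCap only. A further K562 silencer lay near 53.4% of regions of K562 and LNCap only and 52.4% of those of 293T and K562 only. For LNCap the shares were 55.2% with K562 only and 54.4% with 293T only, so the difference from merged regions in general was not particular to regions of all 3 lists. The outermost Mb of the chromosomes held 22 shared regions (1.69%, interval 1.12 to 2.55), against 1.29% of all merged regions and 1.66% of regions of 2 lists (391 of 23598).

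At the edge of the rule, some memberships rested on very small overlaps. In 15 regions (1.15%) the smallest overlap holding the region together was 1 bp, and in 111 (8.55%) it was at most 10 bp; the median was 50 bp. A region held by 1 bp, on chromosome 2 at 89953250 to 89953451, scored 2.1 (293T), 2.3 (K562) and 2.1 (LNCap). Another, also on chromosome 2 at 97591815 to 97592151, scored 2, 3.1 and 2.4. Just outside the rule were 138 pairs of neighbouring regions whose ends touched without an overlap, in the reading with the end outside, and that would together have held all 3 lists. Examples, all on chromosome 1, were the pairs that met at 9218601 (highest scores 3.2, 3.7 and 2.5 in the order 293T, K562, LNCap), 9712301 (2, 2.5 and 2.6) and 9830601 (2, 2.3 and 2.2).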

How the data were processed

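The deposited lists hold chromosome, start, end and an activity score of the authors, per the file headers. Bowtie2, SAMtools and build hg38 are named, per the submitters' processing notes. The caller, its thresholds and how libraries were pooled were not given in the sources used here, nor was the score's scale. Positions are printed as deposited and were read as half-open intervals; whether starts and ends lie inside is not stated.

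Removed were lines without 4 fields, on other chromosomes, with start and end reversed or equal, or wider than 5000 bp (58 in 293T, 12 in K562, 24 in LNCap). Merging was tested on simulated lists against bedtools. Shares have 95% Wilson intervals and densities exact Poisson intervals. No differential test was run, since there is 1 list per line. Members and rules were chosen with earlier results of these data known. The named regions follow written rules: the 10 highest weakest scores, the 3 highest scores per line, the 5 longest common stretches, the 5 fullest regions and 5 fullest bins (6 with a tie), identical intervals, and up to 3 regions on each side of the overlap rule. Other choices were made after the lists were seen: a score of 3, the upper quartile, classes of width, score and density, the chromosome group and the close pairs. No human genome or annotation was used here, so genes, sequences and base composition were not analysed. Alternatives are given at the end. Software was pandas 2.3.3, numpy 2.4.6, matplotlib 3.10.9 and scipy 1.17.1 under Python 3.11.15.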

Additional observations from a re-analysis of the deposited data

Results flagged for a closer look

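Chromosome X was outside the rule, which took chromosomes 1 to 22, and held 66 further regions of all 3 lists. They were 0.402% of its 16401 merged regions (95% Wilson interval 0.316 to 0.512), and the autosomal share of 0.371% lies within that interval.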

How the results depend on the processing

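The number of shared regions depends on how overlap is defined. It was 1288 with an overlap of at least 2 bp and 1465 (0.423% of merged regions) when touching ends were also joined, both added after seeing the data. It was 1102 (0.311%) with 25 bp and 902 (0.251%) with 50 bp. Requiring a base common to all 3 lists left 806 (0.230%), and 1 silencer per list left 958 (0.273%). Merging up to 500 bp apart gave 4029 (1.45%), and silencers set to 300 bp gave 2844 (0.968%). Without the filter on faulty lines it was 864 (0.380%), with lines of any width kept; the cause was not tested. Scores of at least 2.5 in every list left 179 (0.154%). At that limit, median scores rose by construction to 2.9 (293T), 3 (K562) and 3.1 (LNCap), the K562 median width was 100.5 bp, the median distance was 3991 kb and the median common stretch 31 bp. The rank correlation there was 0.066 for 293T and LNCap and 0.34 for K562 and LNCap. Chromosomes 17, 19 and 22 were then at 0.330%, 0.273% and 0.272%. With a common base required they were at 0.484%, 0.512% and 0.274%, median widths were 100 bp in 293T and 126 bp in K562, the median distance was 875 kb and the median common stretch 50 bp. With 1 silencer per list, chromosomes 17 and 19 were at 0.484% and 0.576% and the median distance was 725 kb. Reading both ends of a silencer as inside it, also added later, gave a median common stretch of 23 bp in place of 22 bp. Of 81 values recomputed under these alternatives, 47 stayed within the reported value's 95% interval for counting error or, for the number of regions, within 1.5 times. Only the correlations between lines could change sign, and none of them did. Leaving out infinite scores moved none of the 81 values beyond these limits, which was bound to be so nearly throughout, as the shared regions held no infinite score. Adding chromosomes X and Y moved neither the number (1365) nor the share beyond them.

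No paired analysis was possible because each line has 1 list, with no replicate numbers and no test. For the same reason leaving out a library could not be tried, and read depth, which limits every call, is unknown.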

Other observations

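Start positions modulo 50 differed in places between shared silencers and whole lists. Starts at 1 modulo 50 made up 52.1% (293T), 44.3% (K562) and 43.3% (LNCap) of shared silencers, against 53.6%, 43.3% and 43.8% of the autosomal lists. Starts at 0 modulo 50 made up 3.41% in 293T (interval 2.59 to 4.48), against 4.67% of its list, and 5.78% in K562 (4.69 to 7.11), against 6.32%. In LNCap they made up 4.86% (interval 3.87 to 6.09), against 3.25%. All other starts made up 44.5% in 293T (interval 42.0 to 47.1), against 41.7%. For K562 they were 49.9% against 50.4%, and for LNCap 51.8% against 53.0%.

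The amount of sequence listed per region varied together between K562 and LNCap more than with 293T. Across the 1299 regions, the Spearman correlation of the listed bp was 0.24 between K562 and LNCap. It was 0.084 between K562 and 293T, and 0.024 between LNCap and 293T. Within a line, score and listed bp had a rank correlation of 0.012 in 293T, -0.14 in K562 and -0.15 in LNCap. These are descriptions over regions of the same lists.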
